A study of Mus musculus with 6 samples.

Results

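A set of 9 genes for transcription factors of the macrophage and microglia lineage were followed in microglia that had been cultured with neutrophils. These were the lineage-determining factor gene Spi1, the C/EBP genes Cebpa, Cebpb and Cebpd, the RUNX gene Runx1, the MEF2 genes Mef2a and Mef2c, the large MAF gene Maf and the microglia factor gene Sall1. They were picked by name as known factors of this lineage, out of 55335 gene identifiers in the table, with earlier results of these data known. The microglia came from the brains of neonatal C57BL/6 mice and were of wild-type genotype in every sample. They were shaken off a mixed brain culture, co-cultured for 24 h with neutrophils and then isolated by flow sorting. The neutrophils came from spinal cord injury lesions 3 days after injury, taken from Cd177 wild-type mice (WT arm) or Cd177 knockout mice (KO arm). Cd177 encodes a surface protein of neutrophils, so the genotype that differed was that of the neutrophils and not that of the sequenced cells. Each arm had 3 libraries, 6 in all, and no microglia cultured without neutrophils were analysed here, so the arms can be compared only with each other.

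Transcription factors of this lineage work as a small combination. PU.1, the product of Spi1, opens enhancers across the macrophage genome, and C/EBP, RUNX and other factors bind beside it and set which of those enhancers are used. C/EBP beta and delta are known as inducible factors of the inflammatory and acute phase response, and C/EBP alpha is known for myeloid progenitors and steady-state maturation. RUNX1 works with its partner CBF beta and acts early in the formation of blood cells and microglia. MEF2 factors are part of the resting microglia program and SALL1 is the factor most closely tied to microglia among tissue macrophages. SALL1 depends on signals of the living brain, such as TGF beta, and is known to be lost in culture.

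Expression was given as FPKM, the fragments of a gene per kilobase of its transcript and per 1000000 fragments mapped. It is a level per length, so genes can be compared with each other. The 6 libraries held an estimated 15.6 to 19.2 times 1000000 fragments. A gene entered the test when its mean level over all libraries reached 1 FPKM. Tests were run with limma on log2(FPKM + 1), KO arm minus WT arm, and a gene was called at a Benjamini-Hochberg adjusted p under 0.05. Of 11395 genes tested, 43.3% were called, 24.5% higher and 18.8% lower in the KO arm, so a call by itself was common. In 55.8% of tested genes the values of both arms did not overlap. The filter was passed by 6 members, and 4 of those 6 were called, 1 higher and 3 lower. The median change of the 6 tested members was -0.17, against 0.02 over all tested genes, both on the log2(FPKM + 1) scale. Both values depend on the filter. With no filter, 8 members were tested and 4 called, 2 higher and 2 lower, with a median of -0.075, against 17.9% called among all genes then tested. With a filter at 5 FPKM, 3 were tested and 2 called, 1 in each direction, with a median of -0.06, against 51.0% of all genes. With values rescaled to a common sum, the calls over all genes went from 56.6% higher and 43.4% lower to 45.1% higher and 54.9% lower, and the 4 calls among the members stayed at 1 higher and 3 lower.

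The sequences before the start sites of Cebpb and Cebpa are shown because Cebpb was lower and Cebpa higher in every KO library than in every WT library. Each is the 250 bases before the start site in RefSeq, build GRCm38.p6, plus strand, written 5′ to 3′, at chr2:167688665-167688914 for Cebpb and chr7:35119043-35119292 for Cebpa. Capitals mark a match to a GC box (GGGCGG) or a TATA box (TATAAA).
Cebpb: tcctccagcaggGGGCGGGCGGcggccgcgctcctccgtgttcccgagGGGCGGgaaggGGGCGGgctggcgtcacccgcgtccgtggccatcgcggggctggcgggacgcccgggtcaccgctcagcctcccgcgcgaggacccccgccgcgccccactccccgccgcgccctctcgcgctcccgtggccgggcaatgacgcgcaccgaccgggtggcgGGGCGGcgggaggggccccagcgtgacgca
Cebpa: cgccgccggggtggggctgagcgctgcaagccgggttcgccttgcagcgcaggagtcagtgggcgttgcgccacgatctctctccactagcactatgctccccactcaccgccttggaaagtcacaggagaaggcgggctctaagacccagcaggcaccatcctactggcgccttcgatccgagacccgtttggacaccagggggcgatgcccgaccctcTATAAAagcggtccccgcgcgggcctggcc
The Cebpb window was 81.6% G and C and held 5 GC box matches, the farthest pair of which overlapped. The Cebpa window was 66.4% G and C and held 1 TATA box match, 30 bases before the start. Of 32851 RefSeq promoter windows of the same length, 32.7% held a GC box and 12.4% held a TATA box on either strand. The 7 other motifs searched on both strands had no match in either window, namely C/EBP (TTNCNNAA), PU.1 and ETS core (AGGAAGT), CRE (TGACGT), NF-kB (GGGNNTTTC), STAT (TTCNNNGAA), RUNX (TGTGGT) and AP-1 (TGANTCA). Those letters were found in 36.8%, 7.7%, 6.5%, 3.7%, 7.0%, 14.0% and 6.7% of all windows, in that order. No match says only that these letters were not in these windows. RefSeq windows were matched for 6 of the 9 members, and Spi1, Cebpd and Maf had none.

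The labelled cell type was checked against marker genes first. All 12 markers shared by macrophages and microglia were tested, and 8 were called, 5 higher and 3 lower, against 43.3% of all tested genes. Their summed level was 3166 to 3226 FPKM in the WT arm and 3269 to 3318 FPKM in the KO arm. Of 12 markers of microglia, 9 were under 1 FPKM in every library, and Sall1, C1qa and Fcrls (named after their values were seen) were listed at 0 throughout. The summed microglia markers were 155.8 to 159.2 FPKM in the WT arm and 182.4 to 189.9 FPKM in the KO arm. The cells thus carried the general macrophage signature, while most defining microglia markers were at or near 0. Markers of astrocytes, oligodendrocytes, and fibroblasts and endothelium, 10 genes each, gave no tested gene. None of 20 ubiquitous genes was listed at 0.

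Carried-over neutrophils were looked for in the same way. Of 20 neutrophil markers, 8 were listed at 0 in every library, among them Ly6g and S100a9 (named after their values were seen), and 3 were tested. S100a8, Camp and Csf3r, also named after their values were seen, were under 1 FPKM and lower in each KO library than in each WT library. With no filter, 12 of the markers were tested and 4 were called, all of them lower, against 17.9% of all genes. The summed neutrophil markers were 128.4 to 133.1 FPKM in the WT arm and 12.6 to 15.1 FPKM in the KO arm. Only Lcn2, Mmp9 and Cebpe, 3 of the 20 genes, were above 5 FPKM in some library, and the other 17 summed to 2.17 to 2.45 FPKM in the WT arm and 1.03 to 1.52 FPKM in the KO arm. The highest value among those 17 was 0.744 FPKM. Macrophages can also express Lcn2 and Mmp9. Cd177 itself was 0.477, 0.113 and 0.151 FPKM in the WT arm and 0.109, 0.0217 and 0.0845 FPKM in the KO arm, too low to test. The marker sums moved with the arms, and their part in the values of the 9 factors was not tested. In bulk libraries, fewer cells of a type and less RNA per cell cannot be told apart.

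**Figure D1:**
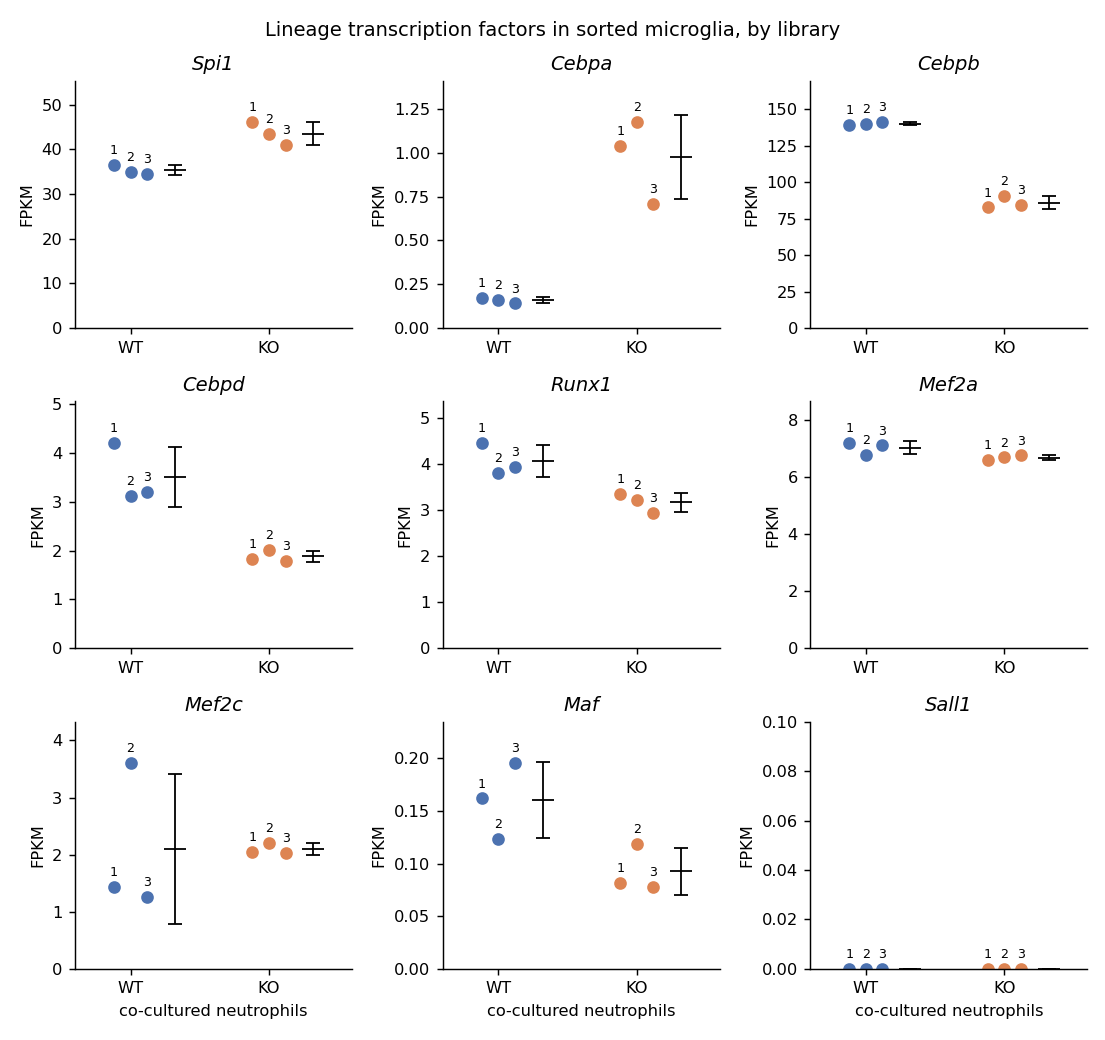
Expression of the 9 lineage factors in each library (FPKM, linear axis from 0, each panel on its own scale). Points are libraries numbered by replicate, and the bar beside each arm is the mean with the SD (n = 3). Cebpb and Cebpd lie lower and Spi1 and Cebpa higher in the KO arm with no overlap, WT replicate 2 stands apart for Mef2c, and Sall1 is at 0 in all 6 libraries.

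Spi1 encodes PU.1, the master factor of the macrophage lineage (ENSMUSG00000002111, chr2:91082390-91115756 in GENCODE M21, build GRCm38, plus strand). It was at 36.5, 35.0 and 34.5 FPKM in the WT arm and at 46.1, 43.4 and 41.0 FPKM in the KO arm. Every KO library was above every WT library. The means were 35.3 ± 1.08 and 43.5 ± 2.56 FPKM (SD, n = 3), 1.23 times higher with KO neutrophils. Spi1 rose by 0.29 on the log2(FPKM + 1) scale (SE 0.048), with a limma adjusted p of 0.00365. It was the only member called higher. Among all tested genes its mean stood at the 88.6th percentile in the WT arm and at the 91.0th in the KO arm. Its nearest relatives in the ETS family, Spib and Spic, which serve B cells and red pulp macrophages, had at most 0.0855 and 0.0502 FPKM and were not tested. Spi1 thus made up at least 99.7% of the summed FPKM of the 3 genes in each library.

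Cebpb encodes C/EBP beta, an inducible factor of the inflammatory response (ENSMUSG00000056501, chr2:167688915-167690418, plus strand, 1 exon). It was at 139.3, 140.0 and 141.2 FPKM in the WT arm and at 82.7, 90.8 and 84.4 FPKM in the KO arm. The WT libraries lay within 2 FPKM of each other, and all 3 KO libraries were far below them. The means were 140.2 ± 0.933 and 86.0 ± 4.25 FPKM (SD, n = 3), 1.63 times lower with KO neutrophils. Cebpb fell by 0.70 on the log2(FPKM + 1) scale (SE 0.036), with a limma adjusted p of 2.5e-05, the smallest among the members. It remained the most abundant of the 9 factors in both arms, at the 97.6th and 95.9th percentile of tested genes. Its exon overlaps that of Tmem189 on the opposite strand. Tmem189 was at 63.9 to 71.4 FPKM in the WT arm and 65.8 to 69.1 FPKM in the KO arm. Whether counting used strand is not stated, so reads of such pairs may be shared.

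Cebpd encodes C/EBP delta, which is induced together with C/EBP beta in the acute phase response (ENSMUSG00000071637, chr16:15887286-15891031, plus strand, 1 exon). It was at 4.21, 3.11 and 3.20 FPKM in the WT arm and at 1.83, 2.01 and 1.79 FPKM in the KO arm. WT replicate 1 was the highest, and the arms did not overlap. The means were 3.51 ± 0.608 and 1.88 ± 0.116 FPKM (SD, n = 3), 1.87 times lower with KO neutrophils. Cebpd fell by 0.64 on the log2(FPKM + 1) scale (SE 0.103), with a limma adjusted p of 0.00336. Its exon overlaps that of Spidr on the opposite strand, which was at 7.22 to 7.58 FPKM in the WT arm and 6.49 to 6.72 FPKM in the KO arm.

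Cebpa encodes C/EBP alpha, the family member of myeloid progenitors (ENSMUSG00000034957, chr7:35119293-35121928, plus strand, 1 exon). It was at 0.174, 0.162 and 0.141 FPKM in the WT arm and at 1.041, 1.176 and 0.710 FPKM in the KO arm. All 3 KO libraries were above all 3 WT libraries. The means were 0.159 ± 0.0168 and 0.976 ± 0.240 FPKM (SD, n = 3), 6.15 times higher with KO neutrophils, the widest ratio among the 9 genes. Its mean over the 6 libraries was under 1 FPKM, so Cebpa did not enter the test. The difference of means was 0.76 on the log2(FPKM + 1) scale, which understates changes of such low genes. At the depth inferred from the smallest steps of the table, the values correspond to about 5.9 to 7.7 fragments per WT library and 35.9 to 58.0 per KO library. The exact two-sided permutation test over 3 against 3 libraries gave p = 0.1, the smallest value this design allows. With no filter on low values, Cebpa was called higher, with a limma adjusted p of 0.00459 over 25195 genes.

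Within the C/EBP members, the inducible pair Cebpb and Cebpd fell, while Cebpa, which was below the filter, was higher in each KO library than in each WT library. Within each library, the log2 ratio of Cebpb to Cebpa had a mean of 9.79 ± 0.165 in the WT arm and 6.49 ± 0.348 in the KO arm (SD, n = 3), a difference of -3.30. The log2 ratio of Cebpd to Cebpa went from 4.46 ± 0.173 to 0.98 ± 0.313 (SD, n = 3), a difference of -3.48. Neither ratio overlapped between the arms. The size of both rests on the low Cebpa values of the WT arm, and with 1 FPKM added to each value the differences were -1.46 and -1.40. The log2 ratio of Cebpb to Cebpd was much closer, at 5.05, 5.49 and 5.46 in the WT arm and 5.50, 5.50 and 5.56 in the KO arm. That difference was 0.18, and it rested in part on 1 library, since it was 0.04 without WT replicate 1. It became -0.06 when 1 FPKM was added to each value before the ratio was taken. In all, 5 such ratios were compared, and 4 of them, all but Mef2a to Mef2c, gave an exact two-sided permutation p of 0.1 (Benjamini-Hochberg 0.125 over the 5), which is the smallest the design allows and cannot pass 0.05.

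**Figure D2:**
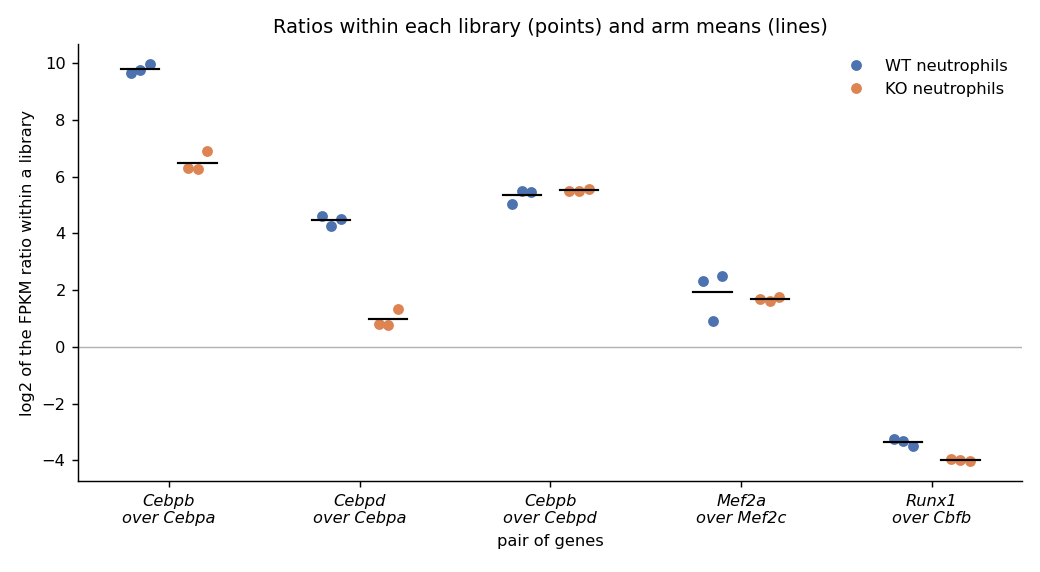
Log2 ratio of FPKM between pairs of genes within each library (vertical axis) for 5 pairs (horizontal axis). Points are libraries, 3 per arm, and lines are arm means. The ratios of Cebpb and Cebpd to Cebpa differ by -3.30 and -3.48 in the KO arm (-1.46 and -1.40 with 1 FPKM added to each value), while Mef2a to Mef2c overlaps between the arms.

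The rest of the C/EBP family gives the setting of these changes. Cebpg, a small family member that dimerises with the others, was at 27.7 to 29.7 FPKM in the WT arm and 22.6 to 23.5 FPKM in the KO arm. It fell by 0.30 on the log2(FPKM + 1) scale, with a limma adjusted p of 0.000814. Ddit3, which encodes the stress factor CHOP, fell by 0.23, with a limma adjusted p of 0.0183, and was no longer called without WT replicate 2, WT replicate 3 or KO replicate 2 (limma adjusted p 0.0573 to 0.0579). On the same strand, exons of Cebpg overlap those of Gm44836, and exons of Ddit3 overlap those of another identifier with the same symbol. Cebpe, the factor of granulocyte maturation, was at 9.94, 10.7 and 11.0 FPKM in the WT arm and at 10.7, 11.0 and 12.2 FPKM in the KO arm. Its arms overlapped and it was not called (change 0.09, limma adjusted p 0.275, and 0.05 without WT replicate 1 or 0.04 without KO replicate 3). Cebpe is itself on the neutrophil marker list, and the source of its reads was not tested.

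The makeup of each family was also expressed as shares of its summed FPKM, a measure chosen after the values had been seen. The 6 C/EBP genes summed to 221.5 to 227.3 FPKM in the WT arm and to 152.3 to 162.6 FPKM in the KO arm. Cebpb made up 62.1% to 62.9% of that sum with WT neutrophils and 53.0% to 55.8% with KO neutrophils. The share of Cebpe was 4.48% to 4.84% against 6.76% to 7.66%, and that of Cebpa 0.0618% to 0.0784% against 0.446% to 0.723%. Each of these shares kept the arms apart, with an exact two-sided permutation p of 0.1, the smallest possible. The share of Cebpe thus differed while its level was not called, since the sum it was divided by was lower. Several shares in other families did not keep the arms apart. In the MEF2 family the shares of Mef2a, Mef2c and Mef2d overlapped between the arms (exact two-sided permutation p 0.6, 0.8 and 0.6), as did those of Sall2 and Sall3 in the SALL family (0.3 each), while Mef2b made up 3.49% to 5.83% of the MEF2 sum with WT neutrophils and 0.445% to 1.3% with KO neutrophils (0.1).

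Runx1 encodes a core-binding factor that acts with PU.1 in early myeloid cells (ENSMUSG00000022952, chr16:92601466-92826149, minus strand, 7 annotated transcripts). It was at 4.46, 3.80 and 3.93 FPKM in the WT arm and at 3.35, 3.21 and 2.94 FPKM in the KO arm. The arms did not overlap, and the gap between the nearest libraries was smaller than the range within the WT arm. The means were 4.06 ± 0.350 and 3.17 ± 0.209 FPKM (SD, n = 3). Runx1 fell by 0.28 on the log2(FPKM + 1) scale (SE 0.071), with a limma adjusted p of 0.0208. This call did not hold under every setting. The adjusted p was 0.0552 without WT replicate 1, 0.0514 without KO replicate 2, 0.0627 without KO replicate 3 and 0.0548 with no filter on low values.

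Of the other genes of the RUNX complex, Runx2 and Cbfb were called higher and Runx3 was not called. Runx2, known for bone and plasmacytoid dendritic cells, was at 4.00, 4.00 and 3.88 FPKM in the WT arm and at 4.74, 4.76 and 4.66 FPKM in the KO arm, and rose by 0.21 on the log2(FPKM + 1) scale (limma adjusted p 0.00966). Cbfb, the partner that stabilises RUNX proteins on DNA, rose by 0.27 (limma adjusted p 0.0123), from 41.9 ± 3.15 to 50.7 ± 2.15 FPKM (SD, n = 3). Runx3, the family member of T cells and of some macrophages, was the most abundant of the 3 RUNX genes at 10.6 to 12.3 FPKM and 10.1 to 10.9 FPKM, and was not called (change -0.11, limma adjusted p 0.201, and -0.05 without WT replicate 1). Runx1 therefore ranked with Runx2 in the WT arm and below it in the KO arm. Its share of the summed RUNX level was 19.9% to 21.5% with WT neutrophils and 16.7% to 17.6% with KO neutrophils. The log2 ratio of Runx1 to Cbfb had a mean of -3.37 in the WT arm and -4.00 in the KO arm, a difference of -0.64 with no overlap.

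**Figure D3:**
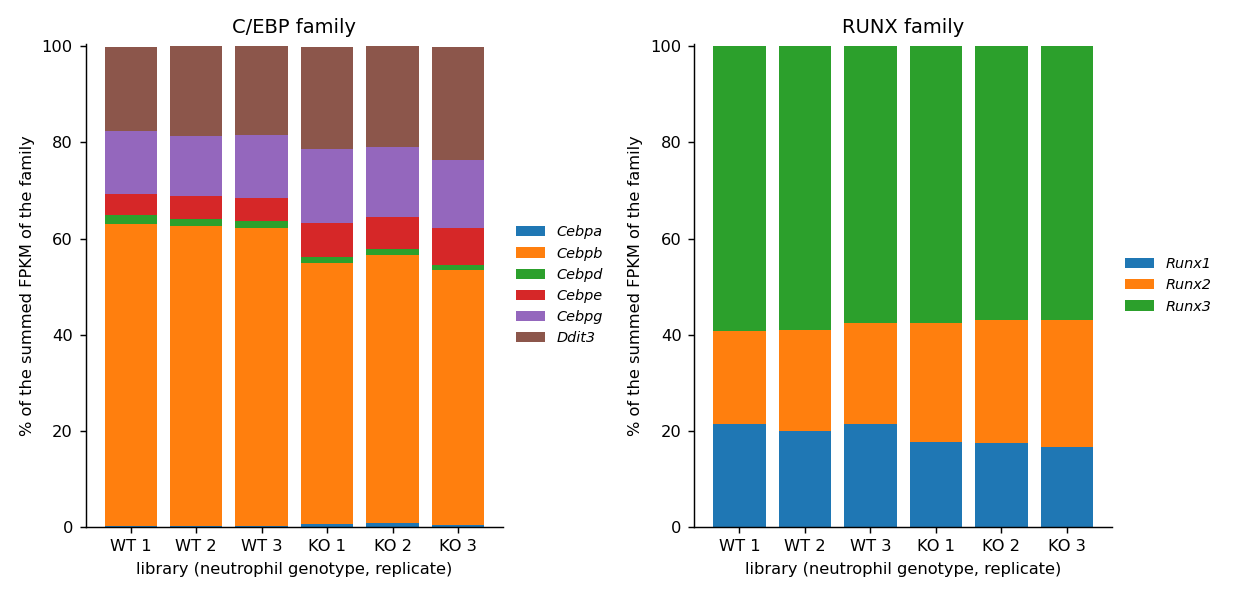
Makeup of the C/EBP family (left) and the RUNX family (right) in each of the 6 libraries, as percent of the summed FPKM of the family's genes (vertical axis from 0 to 100). In the KO libraries the Cebpb segment is smaller (53.0% to 55.8% against 62.1% to 62.9%), and so is the Runx1 segment (16.7% to 17.6% against 19.9% to 21.5%).

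Mef2a encodes the broadly expressed MEF2 factor of macrophages (ENSMUSG00000030557, chr7:67231163-67372858, minus strand). It was at 7.21, 6.77 and 7.12 FPKM in the WT arm and at 6.59, 6.70 and 6.77 FPKM in the KO arm. The lowest WT library and the highest KO library differed by less than 0.01 FPKM, so the arms met without crossing. The change was -0.06 on the log2(FPKM + 1) scale, with a 95% interval of -0.16 to 0.04 and a limma adjusted p of 0.256, and Mef2a was not called. It was the third most abundant member in both arms.

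Mef2c encodes the MEF2 factor that restrains the microglial response to inflammation (ENSMUSG00000005583, chr13:83504034-83667080, plus strand, 31 annotated transcripts). It was at 1.44, 3.60 and 1.25 FPKM in the WT arm and at 2.05, 2.21 and 2.03 FPKM in the KO arm. WT replicate 2 was above every other library, and the other two WT libraries were below every KO library. Both arm means were 2.098 FPKM, with an SD of 1.31 in the WT arm and 0.0994 in the KO arm (n = 3). The change was 0.08 on the log2(FPKM + 1) scale, with a 95% interval of -0.56 to 0.72 and a limma adjusted p of 0.835. This value was decided by 1 library. Without WT replicate 2, Mef2c was called higher in the KO arm, with a change of 0.40 and a limma adjusted p of 0.0123, while without WT replicate 1 or WT replicate 3 the change was -0.06 or -0.11. Neither a difference nor its absence can be read from these 3 WT libraries.

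Of 6 other MEF2 genes and histone deacetylases that repress MEF2 factors, 3 were tested and 1 was called, which is near the 43.3% of all tested genes. With no filter on low values all 6 were tested and 3 were called, 2 higher and 1 lower, against 17.9% of all genes. Mef2d was the most abundant of the family at 19.1 to 23.4 FPKM and 18.2 to 23.3 FPKM, and its change of -0.12 was not called (limma adjusted p 0.442) and ranged from -0.22 without KO replicate 1 to -0.05 without KO replicate 3. Hdac5 rose by 0.34 on the log2(FPKM + 1) scale (limma adjusted p 0.00337), from 4.41 ± 0.313 to 5.84 ± 0.0380 FPKM (SD, n = 3), and Hdac4 was not called (change 0.15, limma adjusted p 0.102). A pair of genes below the filter, named after their values were seen, kept the arms apart. Mef2b was at 1.98, 1.22 and 1.69 FPKM in the WT arm and at 0.143, 0.303 and 0.356 FPKM in the KO arm. Its exons overlap those of Borcs8 on the same strand, so reads of this pair may be shared whether or not counting used strand. Hdac9, known as a transcriptional target of MEF2 that acts back on it, was at 0.441, 0.497 and 0.125 FPKM in the WT arm and at 1.66, 1.56 and 1.55 FPKM in the KO arm.

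Maf encodes the large MAF factor c-MAF, a factor of mature macrophages (ENSMUSG00000055435, chr8:115682942-115707794, minus strand). It was at 0.162, 0.124 and 0.196 FPKM in the WT arm and at 0.0816, 0.119 and 0.0779 FPKM in the KO arm, which corresponds to about 12.2 to 19.8 and 8.3 to 14.2 fragments. All values were far below 1 FPKM and Maf did not enter the test. The lowest WT library was barely above the highest KO library. With no filter on low values the limma adjusted p was 0.139.

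The 3 small MAF genes, whose proteins lack an activation domain and pair with NRF2 or BACH factors, were all called lower. Among all tested genes 18.8% were called lower. Maff was at 17.0, 18.1 and 14.8 FPKM in the WT arm and at 5.52, 5.90 and 6.56 FPKM in the KO arm, a change of -1.33 on the log2(FPKM + 1) scale (limma adjusted p 6.76e-05). Mafk fell by 0.42 (limma adjusted p 0.000843) and Mafg fell by 0.27 (limma adjusted p 0.0034). Exons of Mafg overlap those of Sirt7 on the same strand.

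Sall1 (ENSMUSG00000031665, chr8:89027235-89044162, minus strand) was listed at 0 in all 6 libraries, so it has no fold and no test. Its relative Sall4 was also listed at 0, and Sall2 had at most 0.117 FPKM. Sall3, a family member of the developing nervous system, was the one SALL gene tested, at 1.56, 2.16 and 1.85 FPKM in the WT arm and at 2.15, 1.94 and 1.92 FPKM in the KO arm. Its arms overlapped and it was not called (change 0.08, limma adjusted p 0.53). The change was 0.001 without WT replicate 1 and 0.15 without WT replicate 2.

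Across the 9 genes the order of levels was similar in both arms. In the WT arm Cebpb was followed by Spi1, Mef2a, Runx1, Cebpd and Mef2c, and then by Maf and Cebpa. The values of Runx1 and Cebpd, of Cebpd and Mef2c, and of Maf and Cebpa overlapped over the 3 WT libraries, so these neighbours could not be ordered. In the KO arm the order was Cebpb, Spi1, Mef2a, Runx1, Mef2c, Cebpd, Cebpa and Maf, and no neighbours overlapped. Cebpb was 3.97 times the level of Spi1 in the WT arm and 1.98 times in the KO arm.

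**Figure D4:**
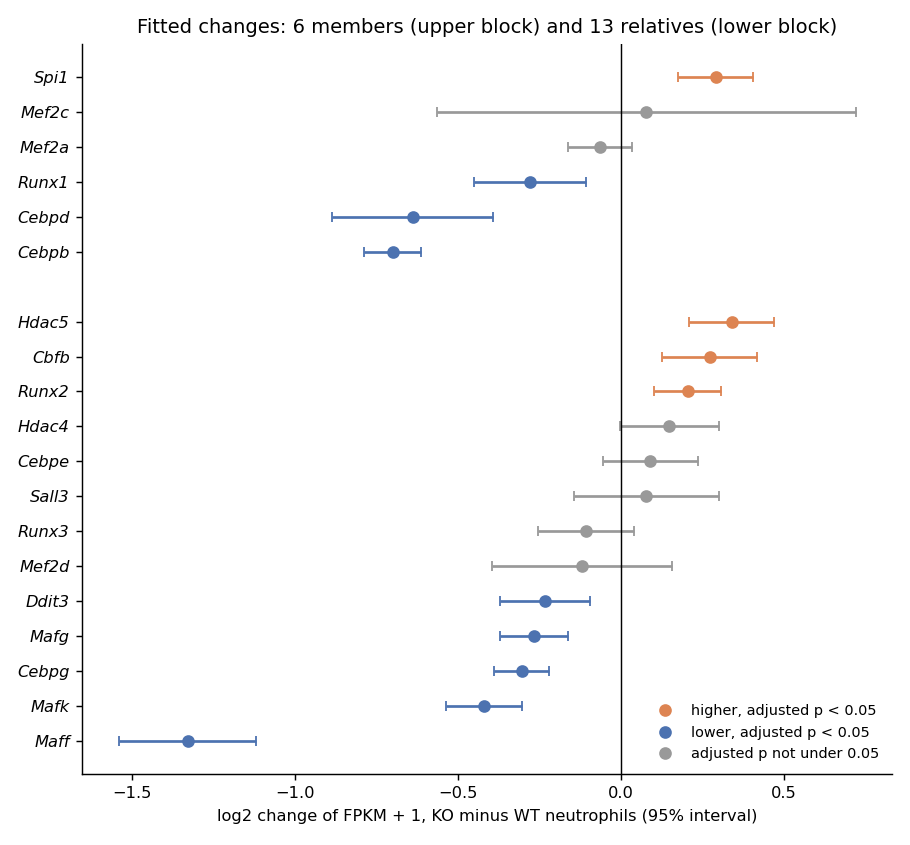
Fitted log2 change of FPKM + 1, KO arm minus WT arm, with the 95% interval (horizontal axis), for the 6 tested members (upper block) and their 13 tested relatives (lower block). Orange marks genes called higher, blue genes called lower and grey genes not called by limma at an adjusted p under 0.05. Maff lies farthest from 0, and the interval of Mef2c is the widest.

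Of 22 relatives of the members reported here (other ETS, C/EBP, RUNX, MEF2, MAF and SALL genes with their partners), 13 were tested and 8 were called, 3 higher and 5 lower, against 43.3% called among all tested genes. Their median change was -0.11, but it was -0.05 without WT replicate 1 or without KO replicate 3. It was -0.02 with no filter, where 10 of 20 were called against 17.9% of all genes, and -0.18 with a filter at 5 FPKM. The 3 genes whose log2 levels ran closest to Cebpb over the 6 libraries were Nr4a1 (Pearson's r 0.9999), Glg1 (0.9998) and Gm20559 (0.9997). Nr4a1 encodes an immediate early nuclear receptor, and it was at 19.0, 19.0 and 19.2 FPKM in the WT arm and at 7.41, 8.92 and 7.83 FPKM in the KO arm. These 6 points share 2 arms far apart, and 1664 genes had an r above 0.9, so the likeness mostly describes a difference between the arms.

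A list of 30 other transcription factors of the blood and macrophage lineage gave 21 tested genes, of which 14 were called, 8 higher and 6 lower, against 43.3% called among all tested genes. Their median change was 0.03 and had no stable direction, at -0.001 without WT replicate 2 and -0.007 without KO replicate 2. Of the 20 whose mean reached 1 FPKM in each arm, 13 were called, 7 higher and 6 lower, against 43.0% under the same condition, and their median was -0.003. The smallest p-values belonged to genes that fell. Id3 and Id2, inhibitors that bind E proteins and keep them off DNA, fell by 2.65 and 0.97 on the log2(FPKM + 1) scale (limma adjusted p 5.91e-06 and 4.13e-05). Id3 was at 11.4, 12.1 and 12.8 FPKM in the WT arm and at 1.40, 0.895 and 1.01 FPKM in the KO arm. Nr4a1 fell by 1.15 (limma adjusted p 3.22e-05).

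Genes known to depend on the factors were counted from lists that overlap in part. Of 25 genes known as PU.1 targets, 24 were tested and 18 were called, 8 higher and 10 lower, against 43.3% called among all tested genes. The called genes were split in direction. The median change was -0.13, but it was 0.003 without WT replicate 3, -0.07 without WT replicate 2 and -0.19 without WT replicate 1. Of the 23 whose mean reached 1 FPKM in each arm, 17 were called, 8 higher and 9 lower, against 43.0%, with a median of -0.10. Its smallest p-values belonged to Cd14, the LPS co-receptor (474.1 ± 7.0 to 136.3 ± 1.66 FPKM, SD, n = 3, change -1.79, limma adjusted p 4.09e-08), Cybb, the catalytic subunit of the phagocyte oxidase (change -1.77, limma adjusted p 3.51e-07), and Adgre1, which encodes F4/80 (change -1.34, limma adjusted p 1.74e-06). All 3 fell.

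Of 25 genes known as C/EBP beta and delta targets, 17 were tested and 17 were called, 15 lower and 2 higher, against 43.3% of all tested genes. The median change was -2.40, and it depended on the settings, at -1.73 with no filter, -3.70 with a filter at 5 FPKM and -3.80 with a pseudocount of 0.1. Of the 17, 7 passed the filter through 1 arm only and had to differ. Of the 10 whose mean reached 1 FPKM in each arm, 10 were called, 9 lower and 1 higher, with a median of -2.23, against 43.0% called and 18.5% called lower among the 11050 genes of the table that met the same condition. Ptgs2, the inducible cyclooxygenase, was at 168.9, 168.0 and 168.4 FPKM in the WT arm and at 4.13, 3.77 and 3.99 FPKM in the KO arm, and fell by 5.09 (limma adjusted p 4.84e-09). Ccl2, a monocyte chemokine, fell by 4.58 (limma adjusted p 1e-08). Csf3, which encodes G-CSF, was at 122.3, 126.8 and 125.2 FPKM in the WT arm and was listed at 0 in each KO library, so no fold is given. It is 1 of the 7 that passed the filter through 1 arm only, so its call goes with that. Many genes of this list also respond to other inflammatory factors such as NF-kB. The list was chosen with earlier results of these data known. It includes inflammatory genes that the study had already reported lower in microglia of the KO arm. Its count is therefore no independent support for the changes of Cebpb and Cebpd.

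Of 20 genes that depend on SALL1 or MEF2C in microglia, 10 were tested and 7 were called, 5 higher and 2 lower, against 43.3% called among all tested genes. The median change was 0.19, but it was 0.089 without WT replicate 2, 0.113 without KO replicate 2 and 0.086 without KO replicate 3. Of the 9 whose mean reached 1 FPKM in each arm, 6 were called, 4 higher and 2 lower, against 43.0%, with a median of 0.14. Trem2, a lipid receptor of microglia, went from 12.0 ± 1.05 to 28.0 ± 0.364 FPKM (SD, n = 3) and rose by 1.15 (limma adjusted p 2.34e-05). Mertk, a receptor for the uptake of dying cells, was at 0.490 ± 0.105 FPKM in the WT arm and 2.07 ± 0.140 FPKM in the KO arm (SD, n = 3), so it passed the filter through the KO arm only and its call (change 1.04, limma adjusted p 0.000155) goes with that. Gpr84, an inducible receptor for fatty acids, fell by 1.25 (limma adjusted p 0.000108). The 10 untested genes of this list were under 1 FPKM in every library, as Sall1 was.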

How the data were processed

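RNA from 6 samples of sorted microglia was sequenced, 3 per arm; groups and replicate numbers came from the titles. One table of FPKM values, 1 column per library, was deposited by the authors. The submitters' processing notes name fastp 0.17.1, HISAT2 2.1.0, DESeq2 1.18.1 and R 3.4.3. The quantification program, genome build and annotation are not given in the sources used here, and the labels and the study's methods name different library kits and sequencers. Symbols and positions came from GENCODE M21 (GRCm38), which held 55154 of the 55335 identifiers.

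Values were transformed to log2(FPKM + 1), filtered at a mean of 1 FPKM and fitted with limma 3.58.1 (R 4.3.3, empirical Bayes with a mean-variance trend), with p adjusted over all tested genes. Single values were compared by exact permutation (scipy 1.17.1). No count test was run, because whole reads could not be recovered. The smallest steps implied 15.568 to 19.234 (in units of 1000000) fragments per library, but 41.9% to 44.1% of low values were whole within 0.05 fragments, against 10% if spread evenly. Fragment numbers in the text use the longest annotated transcript and are approximate.

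The members and gene lists were chosen with earlier results of these data known. Named genes are the 9 members, each tested relative, Cd177 and up to 3 tested genes with the smallest p of each other list. The 3 genes most correlated with the member of smallest p are also named. Some untested relatives, genes whose exons overlap those of a member or relative, and the neutrophil markers above 5 FPKM are named too. Other genes outside this rule are said to be named after their values were seen. The labels do not say whether replicates were separate cultures, so p-values measure the spread between these samples, which may be technical. A further related gene, and the gene list and ratio that rest on it, are not reported here. The alternatives were another pseudocount, other filters, other scalings, no trend, a replicate block and leaving out each library.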

Additional observations from a re-analysis of the deposited data

How the results depend on the processing

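Of 599 values recomputed under 15 alternative settings, 580 were taken as kept. Tested genes had to keep their direction and their side of the threshold. Untested genes and ratios had to move by less than the spread between replicates. Counts of called genes had only to stay near the main count, such as 3 or 5 members called against 4. With a filter at 5 FPKM, 3 members were tested and 2 called, against 51.0% of all genes. Cebpd, Runx1 and Mef2c were under 5 FPKM in every library and left the test. With no filter, the Cebpa change was 0.76 and was called (limma adjusted p 0.00459), and the Runx1 change was -0.28 and was not called (0.0548). With a pseudocount of 0.1, the changes of the untested genes were 2.03 for Cebpa, -0.43 for Maf and -0.90 for Cd177. With 1 FPKM added before taking ratios, the log2 ratio differences were -1.46 for Cebpb to Cebpa, -1.40 for Cebpd to Cebpa and -0.061 for Cebpb to Cebpd, the last with its direction reversed. These low genes are the ones a pseudocount moves by construction.

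Leaving out 1 library at a time gave 4082 to 4223 genes called and 3 to 5 members called. The Runx1 change ranged from -0.32 to -0.22 and the Mef2c change from -0.11 to 0.40, with its direction reversed without WT replicate 1 (-0.06) or WT replicate 3 (-0.11). The difference in the log2 ratio of Mef2a to Mef2c ranged from -0.743 to 0.055, reversed without WT replicate 3 (0.055). Ddit3 was not called without WT replicate 2, WT replicate 3 or KO replicate 2 (limma adjusted p 0.0573 to 0.0579). Other causes were not tested.

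Same-numbered libraries did not deviate together (r of -0.08, -0.05 and -0.01 for replicates 1, 2 and 3). These values cannot settle whether the numbers pair the samples, since libraries of unlike number were not compared. With the replicate block, 4212 genes and 4 members were called, and no call among the named genes changed.

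Quantile normalization gives no value for untested genes, and Sall1 has no value under any setting. The depth limits Cebpa, Maf and Cd177, whose values rest on few fragments, and 3 libraries per arm cannot give a permutation p under 0.1.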
